A study of Mus musculus with 2 samples.

Results

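The genes of the proteasome were followed over bone, muscle and marrow spots in 2 sections of healing mouse femur, 1 from a Control and 1 from a Loaded animal. Members were all measured symbols that start with Psma, Psmb, Psmc, Psmd, Psme or Psmg and that had at least 10 unique molecular identifiers (UMIs, counts of captured molecules) over both sections. This gave 46 members of 47 such symbols and of 19465 genes in all. The symbol that missed the limit was *Psmb11*, the thymus subunit, with 5 UMIs. One member, *Psmc3ip* (70 UMIs), carries the prefix but is a meiotic recombination factor, which leaves 45 genes of the proteasome, its activators and its assembly chaperones. *Psmb1* and *Psmd11* were not analysed here.

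Both animals were female bone cell reporter mice, in which CRISPR-Cas9 was used to tag *Ibsp* with eGFP and *Acp5* (TRAP) with mCherry, so both groups carried both alleles. The femur was cut at 12 weeks of age and held by an external fixator, and the animals were killed at 17 weeks (5 weeks from the operation), with 10 hours between the final session and collection. The Loaded animal received cyclic mechanical loading from week 3, after bridging, and the Control animal received sham loading. Fixed, paraffin-embedded sections were measured with Visium, a probe-based assay on a grid of spots, each of which covers several cells, so that fewer cells of a type and less RNA per cell cannot be told apart.

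The proteasome is the protease complex that degrades ubiquitin-tagged proteins. Its 20S core is a barrel of alpha rings, which gate entry, and beta rings, which hold the cutting sites, and its 19S caps recognise, deubiquitinate and unfold the substrate. The beta subunits that cut are *Psmb6* (beta 1, caspase-like), *Psmb7* (beta 2, trypsin-like) and *Psmb5* (beta 5, chymotrypsin-like), and cells of the immune system, or cells exposed to interferon, build the immunoproteasome with *Psmb9*, *Psmb10* and *Psmb8* in their places. Skeletal muscle relies on the constitutive form for turnover of its contractile proteins, and the immune form is known for making peptides for MHC class I.

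Depth was 9002147 UMIs in 1962 spots for Control and 4910716 UMIs in 1436 spots for Loaded. The 131 Control and 146 Loaded bone spots were those the study itself assigned to bone, with a median of 3478 and 2621 UMIs. Muscle was defined as spots outside bone with at least 10% of their UMIs in 22 muscle genes (1032 Control and 640 Loaded spots), and marrow as spots outside bone with a muscle share under 10% and at least 1% of UMIs in 10 granulocyte genes (36 and 120 spots). The labels held in part. All 6 osteoblast markers had UMIs in the bone spots of both sections, at 83.5 per 10000 UMIs in Control and 248 in Loaded, but bone spots also held muscle transcripts, with 16.3% of Control and 8.32% of Loaded UMIs in the 22 muscle genes. The granulocyte genes chose the marrow spots and so do not check them, while 7 erythroid genes, which were not used, made up 10.96% and 9.75% of UMIs there, against 2.47% and 3.05% in bone. Kept spots in none of the 3 regions held 7.19% and 6.50%, with blocks that overlapped those of marrow. The erythroid genes thus set marrow apart from bone but not from those other spots. The Control marrow rested on 61674 UMIs, against 326442 in Loaded. With 1 section a group no test of the Control and Loaded difference was possible, and all intervals are exact 95% intervals that cover counting error only. Each region was also cut into 4 blocks at its median array row and column, to show how much values varied within a section.

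The first question was which catalytic subunits each tissue carried. The measure was the immune share, the UMIs of *Psmb8*, *Psmb9* and *Psmb10* as a percentage of the UMIs of *Psmb5* to *Psmb10*. Because both forms were counted in the same spots the share needs no scaling, but each gene is read by its own probes, so shares are comparable between regions and not as a molar composition. Muscle was mostly constitutive, with 7.60% immune in Control (282 of 3711 UMIs, interval 6.77 to 8.5) and 18.3% in Loaded (231 of 1264, 16.2 to 20.5). Marrow lay at the other end, with 50% in Control (15 of 30, 31.3 to 68.7) and 57.8% in Loaded (89 of 154, 49.6 to 65.7). The value for bone lay between them in both sections. Its share was 21.6% in Control (55 of 255, 16.7 to 27.1) and 48.9% in Loaded (93 of 190, 41.6 to 56.3). In Loaded the intervals of bone and marrow overlapped, so their order there is not settled. The log2 odds of immune over constitutive UMIs were higher in bone than in muscle by 1.74 (1.25 to 2.22) in Control and by 2.10 (1.62 to 2.58) in Loaded, and higher in marrow than in muscle by 3.60 (2.45 to 4.75) and 2.61 (2.09 to 3.14). Kept spots in none of the 3 regions, a group added after the values were seen, held 44.5% (40.6 to 48.5) in Control and 46.1% (42.5 to 49.8) in Loaded.

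**Figure D1:**
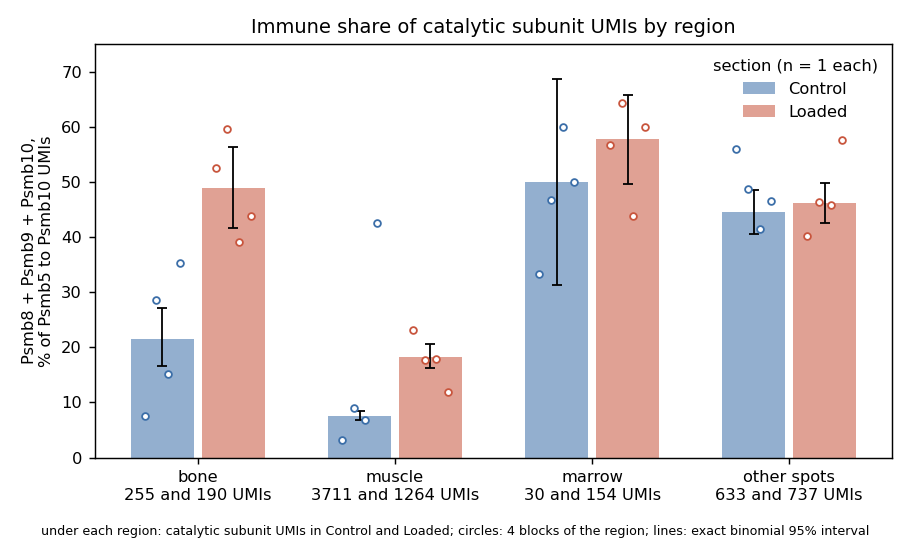
Immune share of catalytic subunit UMIs (y axis, %) in bone, muscle, marrow and other spots of the Control (blue) and Loaded (red) section, 1 section each. Bars give the region's value, lines the exact binomial 95% interval and circles the 4 blocks. The 4 Loaded bone blocks (39.0 to 59.5%) lie above the 4 Control bone blocks (7.50 to 35.3%), and 1 Control muscle block stands apart at 42.5%.

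Loaded bone had the higher share in every block. The 4 Control bone blocks held 7.50, 28.6, 15.2 and 35.3%, and the 4 Loaded blocks 52.5, 59.5, 39.0 and 43.8%, so the groups of blocks did not overlap. The log2 odds difference, Loaded over Control, was 1.80 in bone (1.18 to 2.43) and 1.44 in muscle (1.17 to 1.72). In marrow it was 0.45 (-0.79 to 1.70), an interval that holds 0 and also differences as large as the one in muscle, so at this depth the marrow of the sections was not distinguished. Muscle blocks overlapped. Loaded muscle blocks ran from 11.9 to 23.2%, while 3 Control blocks lay between 3.23 and 9.03% and the last, of 32 spots and 40 catalytic UMIs, at 42.5%. That block had 14.6% of its UMIs in muscle genes, against 35.2 to 42.5% in the other Control muscle blocks.

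The muscle content of the spots moved with the bone result. The 2 Control bone blocks with the lowest immune shares had 22.8 and 25.8% of their UMIs in muscle genes, and the 2 with the highest had 6.31 and 7.45%, while Loaded bone blocks had 4.70 to 12.2%. Among bone spots with a muscle share under 5% the immune share was 41.7% in Control (24 UMIs in 17 spots, 22.1 to 63.4) and 48.2% in Loaded (56 UMIs in 31 spots, 34.7 to 62.0). The log2 odds difference there was 0.38 in place of 1.80, a value that rests on these few UMIs and is given without an interval. In all bone spots under 10% muscle, Control had 37 immune and 73 constitutive UMIs and Loaded had 61 and 54. Between 5 and 10% the immune share was 31.4% (21.8 to 42.3) against 57.6% (44.1 to 70.4), and between 10 and 20% it was 26.7% (12.3 to 45.9) against 43.2% (31.8 to 55.3). Control bone spots went on to 10.0% and 8.0% in the 2 bins from 20% muscle upward, where Loaded bone had 1 spot. The Loaded share was thus the higher in each of the 3 bins that both sections filled, with intervals that overlapped in all but the middle one.

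Over all kept spots the order depended on the bin. The immune share was 51.6% in Control and 48.9% in Loaded below 5% muscle, 36.4 and 48.6% from 5 to 10%, and 35.5 and 28.0% from 10 to 20%, where Control was the higher. It was 13.7 and 17.5% from 20 to 30%, and 4.43% (3.75 to 5.20) against 10.4% (7.90 to 13.4) at 30% and more, the bin closest to pure muscle.

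**Figure D2:**
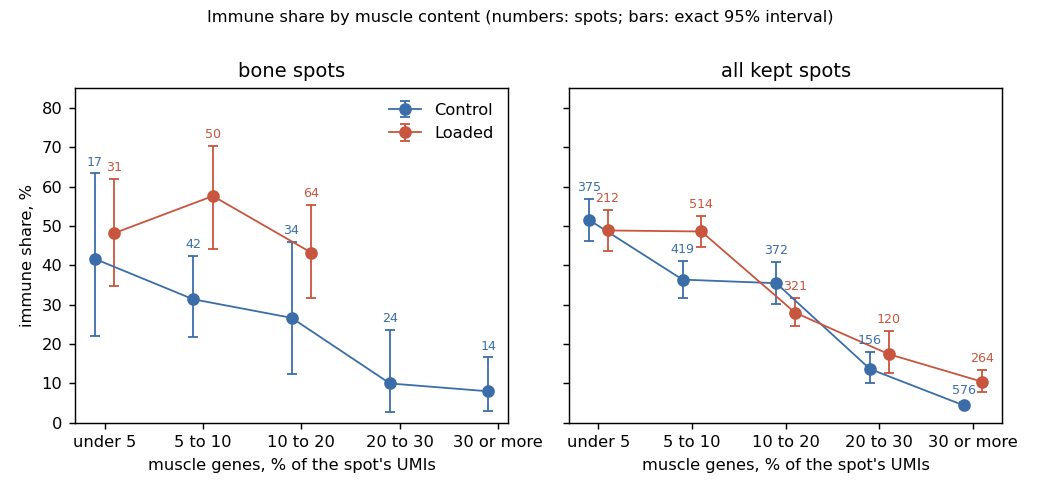
Immune share (y axis, %) against the percentage of a spot's UMIs in 22 muscle genes (x axis, 5 bins), for bone spots (left) and all kept spots (right) of the Control (blue) and Loaded (red) section. Points are bin values, lines the exact 95% interval and numbers the spots, and bins of fewer than 10 spots are left out. Shares decline with muscle content in Control bone, from 41.7 to 8.0%, and within the bone panel the sections are closest in spots under 5% muscle.

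Granulocyte genes were higher in Loaded bone with blocks apart, while the other immune cell lists and MHC class II had overlapping blocks. The 10 genes of MHC class I peptide loading, taken up below, also had blocks apart. They had 27.8 UMIs per 10000 in Control bone (blocks 19.6 to 36.1) and 43.6 in Loaded bone (blocks 40.0 to 46.7). Summed over 10 genes, granulocyte markers had 11.1 UMIs per 10000 in Control bone and 44.0 in Loaded bone, with block ranges of 8.08 to 13.1 and 35.3 to 60.5. The 5 MHC class II genes had 12.8 and 21.4 (blocks 10.4 to 19.8 and 16.7 to 25.1), the 8 B and plasma cell genes 5.11 and 8.73 (blocks 2.67 to 12.3 and 4.61 to 14.7), and the 8 macrophage genes 9.42 and 10.2 (blocks 5.13 to 13.9 and 7.37 to 13.0), with *Adgre1* at 0 in Loaded bone. The 8 T and NK cell genes had 0.520 and 0.831. In bone spots under 5% muscle, granulocyte genes had 6.75 and 42.9 and MHC class II genes 15.2 and 19.6. B and plasma cell genes had 13.3 and 5.26 there and macrophage genes 17.1 and 11.9, both lower in Loaded. From 5 to 10% muscle the order of B and plasma cell genes was the opposite, at 3.57 in Control and 10.2 in Loaded. Macrophage genes had 13.3 and 10.3 in that bin. In muscle spots MHC class II genes had 3.68 in Control and 12.2 in Loaded, granulocyte genes 3.12 and 7.08, and macrophage genes 2.47 and 5.51. The part of these cells in the immune share was not tested.

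The map of catalytic UMIs showed the same contrast spot by spot. Constitutive UMIs were densest in muscle spots, most of all at the lower left and along the upper left side of the Control section and at the upper and lower edges of the Loaded section, and immune UMIs were spread over all regions. Because spots differed in depth, each spot of at least 1000 UMIs was also thinned to that number. After thinning, 10.7% of 131 Control bone spots (5.97 to 17.3) and 16.8% of 131 Loaded bone spots (10.8 to 24.3) held an immune UMI, with 15 shallower Loaded spots left out, and the intervals overlapped. For constitutive UMIs the shares were 26.7% (19.4 to 35.2) and 23.7% (16.7 to 31.9). Before thinning the immune shares of spots were 33.6 and 40.5%. In muscle, thinned shares were 6.84% and 8.21% for immune and 36.6% and 29.9% for constitutive UMIs. In marrow the order for immune UMIs was the opposite, with 35.3% of 34 Control spots (19.8 to 53.5) and 23.5% of 119 Loaded spots (16.2 to 32.2).

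**Figure D3:**
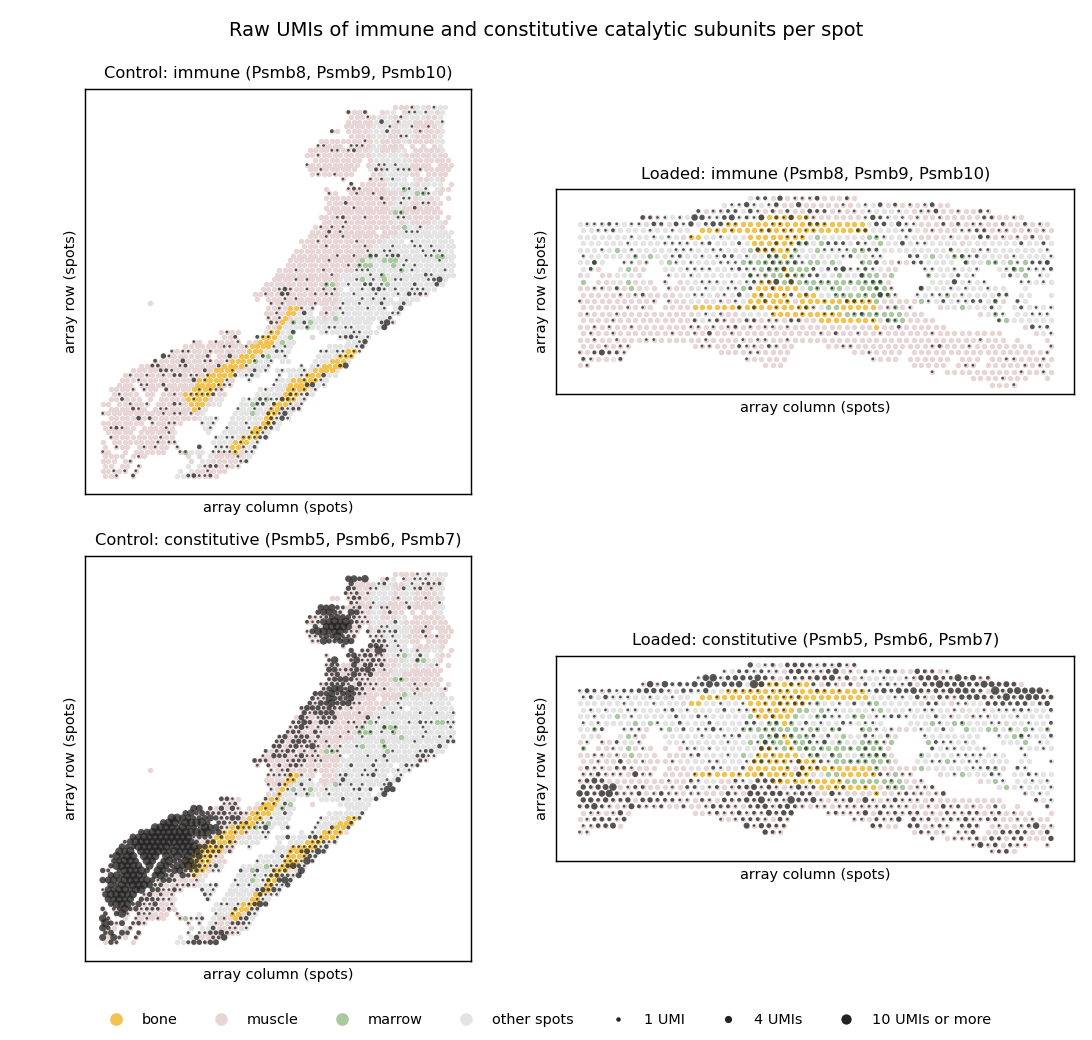
Spots of the Control (left) and Loaded (right) section by array column and row, coloured by region (bone yellow, muscle pink, marrow green, other spots grey). Black dots mark raw UMIs of immune (top) and constitutive (bottom) catalytic subunits, with dot area proportional to the UMIs up to 10. Constitutive UMIs crowd the muscle spots (3429 in Control, 1033 in Loaded), while immune UMIs (282 and 231 in muscle) are spread over all regions.

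Taken one position at a time, the beta 1 and beta 5 pairs differed most between the bone regions. At the beta 5 position, *Psmb8* made up 38.0% of *Psmb8* and *Psmb5* UMIs in Control bone (19 of 50, 24.7 to 52.8) and 76.3% in Loaded bone (45 of 59, 63.4 to 86.4), with blocks of 11.1 to 60.0% and 58.3 to 93.8% that overlapped. At the beta 1 position, *Psmb9* made up 8.82% of *Psmb9* and *Psmb6* UMIs (6 of 68, 3.31 to 18.2) and 38.9% (21 of 54, 25.9 to 53.1), and the blocks lay apart, at 0 to 19.05% and 27.3 to 43.8%. At the beta 2 position, *Psmb10* made up 21.9% (15.3 to 29.8) and 35.1% (24.5 to 46.8), with overlapping blocks. In muscle the same 3 shares were 18.8, 4.10 and 6.64% in Control and 44.5, 14.3 and 13.7% in Loaded. In marrow *Psmb8* held 81.8% (9 of 11 UMIs) and 77.6% (38 of 49) of its pair, and *Psmb9* 33.3% (3 of 9) and 66.7% (24 of 36).

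Levels are given as normalized counts, UMIs of a region divided by its summed scran size factors, so that 1 stands for a UMI per unit of size factor. That unit is not a fixed depth. The factors summed to 1311.5 for 6912317 UMIs in Control muscle and to 173.5 for 557259 UMIs in Control bone. *Psmb8*, the chymotrypsin-like immune subunit, stood at 0.109 in Control bone (19 UMIs, blocks 0.0384 to 0.185) and 0.349 in Loaded bone (45 UMIs, blocks 0.284 to 0.516), a log2 ratio of 1.67 (0.87 to 2.53) with blocks apart. *Psmb9*, the caspase-like position's immune subunit, stood at 0.0346 (6 UMIs, blocks 0 to 0.0823) and 0.163 (21 UMIs, blocks 0.0951 to 0.284), a log2 ratio of 2.23 (0.88 to 3.83), also with blocks apart but on too few UMIs for the rule below. *Psmb10* was at 0.173 (30 UMIs) and 0.209 (27 UMIs), a log2 ratio of 0.28 (-0.53 to 1.07).

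The constitutive partners pointed the other way. *Psmb7* stood at 0.617 in Control bone (107 UMIs) and 0.387 in Loaded bone (50 UMIs), a log2 ratio of -0.67 (-1.19 to -0.17). *Psmb6* had 62 and 33 UMIs (-0.48, -1.14 to 0.15) and *Psmb5* 31 and 14 UMIs (-0.72, -1.74 to 0.23). The blocks of all 3 overlapped. Summed, constitutive UMIs differed by -0.62 (-0.98 to -0.26) and immune UMIs by 1.18 (0.69 to 1.69). The constitutive difference turned with muscle content. In bone spots under 5% muscle it was 0.70 (-0.27 to 1.73, 14 and 29 UMIs) and from 10% upward it was -0.96 (-1.5 to -0.46). The immune difference kept its sign in both, at 1.08 (-0.01 to 2.29, 10 and 27 UMIs) and 1.43 (0.55 to 2.35). Bone spots from 10% upward were not matched for muscle. Control had 24 spots from 20 to 30% and 14 above, and Loaded had 1 spot from 20% upward. In the bin from 10 to 20%, immune UMIs per 10000 were 1.13 in Control and 1.99 in Loaded. Constitutive UMIs there were 3.10 and 2.61.

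In muscle the 6 catalytic genes were counted more deeply. The muscle regions differed in content, with 35.6% of Control and 25.7% of Loaded UMIs in the 22 muscle genes. The part of this content in the muscle differences here and below was not tested. *Psmb7* stood at 1.47 in Control (1926 UMIs, blocks 0.804 to 1.67) and 0.935 in Loaded (632 UMIs, blocks 0.781 to 1.35), a log2 ratio of -0.65 (-0.78 to -0.52). *Psmb6* stood at 0.820 and 0.444, a log2 ratio of -0.89 (-1.08 to -0.70), and *Psmb5* at 0.326 and 0.149, a log2 ratio of -1.12 (-1.45 to -0.81). *Psmb9* stood at 0.0351 (46 UMIs, blocks 0.0301 to 0.0473) and 0.0740 (50 UMIs, blocks 0.0635 to 0.0847), a log2 ratio of 1.08 (0.47 to 1.69) with blocks apart. *Psmb8* differed by 0.67 (0.22 to 1.10) and *Psmb10* by 0.50 (0.12 to 0.88), and their blocks overlapped. Under 5 ways of scaling, all 3 constitutive genes stayed below 0 and all 3 immune genes above 0 in bone and in muscle.

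The DNA before the RefSeq start sites of these genes is shown because, over all bone spots and all muscle spots, the immune genes at the beta 5 and beta 1 positions differed in the same direction, opposite to the constitutive genes they replace. That contrast did not hold at like muscle content. In bone spots under 5% muscle *Psmb5* (0.38, -1.98 to 3.07) and *Psmb6* (1.13, -0.42 to 2.96) lay above 0. From 5 to 10% *Psmb9* was at 0.08 (-2.60 to 2.44, 5 and 3 UMIs) and *Psmb8* at 1.82 (0.51 to 3.25). *Psmb5* was at -0.99 (-4.29 to 1.41) and *Psmb6* at -0.82 (-2.18 to 0.37) in that bin. The windows are 250 bases long, in GRCm38.p6, printed 5′ to 3′ on the gene's strand. *Psmb8* lies at chr17:34197945-34198194 (plus strand), *Psmb9* at chr17:34187331-34187580 (minus strand), *Psmb5* at chr14:54617996-54618245 (minus strand) and *Psmb6* at chr11:70525107-70525356 (plus strand). *Psmb9* and *Tap1*, a subunit of the MHC class I peptide transporter, start 226 bases apart on opposite strands by these start sites and share this window. The GENCODE gene models start elsewhere. Those of *Psmb8* (chr17:34197721-34201454) and *Psmb9* (chr17:34181987-34187764) begin further upstream and contain the whole window, that of *Psmb5* (chr14:54614119-54618022) overlaps its window in part, and that of *Psmb6* (chr11:70525367-70527858) lies clear of it. Capitals mark matches to TTCNNNGAA, a palindromic motif, or to TGACNNNGC, the core of antioxidant response elements, on either strand.
Psmb8: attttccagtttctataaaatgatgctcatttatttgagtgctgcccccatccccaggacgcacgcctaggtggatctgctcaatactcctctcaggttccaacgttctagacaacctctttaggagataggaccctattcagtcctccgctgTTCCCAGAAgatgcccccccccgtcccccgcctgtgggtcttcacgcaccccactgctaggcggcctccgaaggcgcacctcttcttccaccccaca
Psmb9: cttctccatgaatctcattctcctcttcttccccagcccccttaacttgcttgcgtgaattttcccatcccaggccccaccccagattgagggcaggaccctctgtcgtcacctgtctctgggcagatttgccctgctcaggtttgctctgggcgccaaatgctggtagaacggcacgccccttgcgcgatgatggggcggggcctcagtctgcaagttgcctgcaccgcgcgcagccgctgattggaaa
Psmb5: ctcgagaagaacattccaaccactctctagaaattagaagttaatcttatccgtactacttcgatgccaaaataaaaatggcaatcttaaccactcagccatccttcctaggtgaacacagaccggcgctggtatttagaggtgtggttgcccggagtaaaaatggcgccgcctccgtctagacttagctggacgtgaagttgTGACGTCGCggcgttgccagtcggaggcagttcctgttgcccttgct
Psmb6: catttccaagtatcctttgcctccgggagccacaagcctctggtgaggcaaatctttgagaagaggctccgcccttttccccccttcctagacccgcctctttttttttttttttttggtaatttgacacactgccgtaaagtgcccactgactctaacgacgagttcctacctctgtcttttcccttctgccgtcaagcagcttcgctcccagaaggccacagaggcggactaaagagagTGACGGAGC

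The *Psmb8* window held 1 match to TTCNNNGAA and the *Psmb5* and *Psmb6* windows 1 match each to TGACNNNGC, while the *Psmb9* window held none of the motifs searched. Another motif searched, the core of interferon-stimulated response elements (GAAA, NN and GAAA in a row), was in none of the 4. Of 32851 RefSeq windows, several of which can belong to 1 gene, 7.02% held TTCNNNGAA, 10.2% TGACNNNGC and 2.98% the interferon element core. Of the 39 members with a window, 2, 5 and 3 held them. These matches describe letters and not sites of binding.

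Next, the whole complex was compared between Loaded and Control bone. A member was called where its log2 ratio was above 0.5 or below -0.5 and all 4 blocks of one region lay above all 4 of the other, among genes with at least 50 UMIs over the regions compared. In bone 28 of 46 members reached 50 UMIs. Of these, 3 were called higher and 1 lower in Loaded, against 9.35% of all 3914 genes called higher and 3.32% called lower by the same rule. The median log2 ratio was -0.04 over these members and 0.08 over all genes. Beside *Psmb8*, the members called higher were *Psmd14*, the deubiquitinase of the 19S lid, and *Psma4*, an alpha ring subunit. *Psmb8* and *Psmd14* were called under all 5 scalings and *Psma4* only with scran factors.

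*Psmd14* had 42 UMIs in Control bone (0.242, blocks 0.149 to 0.346) and 74 in Loaded bone (0.573, blocks 0.456 to 0.792), a log2 ratio of 1.24 (0.68 to 1.83). In bone spots under 5% muscle it had 1 and 29 UMIs, a log2 ratio of 4.51 (1.91 to 9.86). It was at 0.95 (0.03 to 1.88) from 5 to 10% and at 0.74 (-0.21 to 1.68) from 10% upward. The other called members were closer to 0 in the spots under 5%, with *Psmb8* at 0.65 (-0.76 to 2.2, 7 and 14 UMIs), *Psma4* at 0.46 (-0.90 to 1.92) and *Psmd4* at -0.42 (-1.35 to 0.51). In all spots under 10% muscle *Psmd14* was at 1.55 (0.81 to 2.34) and *Psmb8* at 1.31 (0.37 to 2.31). *Psma4* was at 0.97 (0.09 to 1.88) there and *Psmd4* at -0.51 (-1.09 to 0.05). Over all bone spots *Psma4* had 34 and 41 UMIs, a log2 ratio of 0.70 (0.01 to 1.40). *Psmd4*, a ubiquitin receptor of the 19S cap, was the member called lower, with 159 UMIs in Control bone (0.916, blocks 0.709 to 1.08) and 79 in Loaded bone (0.612, blocks 0.482 to 0.666), a log2 ratio of -0.58 (-0.99 to -0.18). The lowest ratios belonged to *Psma2* of the alpha ring (-0.98, -1.98 to -0.05), the 19S ATPase *Psmc5* (-0.93, -1.86 to -0.07) and *Psmd13* of the 19S lid (-0.71, -1.37 to -0.07), all with overlapping blocks.

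Core and 19S subunits had sums on opposite sides of 0. Summed alpha ring UMIs differed by 0.32 (0.07 to 0.57) and structural beta UMIs (*Psmb2*, *Psmb3* and *Psmb4*) by 0.29 (0.03 to 0.55), while 19S ATPases differed by -0.12 (-0.34 to 0.09) and other 19S subunits by -0.19 (-0.36 to -0.02). Of 9 tested core subunits outside the catalytic ones, 7 had a ratio above 0, and of 13 tested 19S subunits 3 did. The core sum stayed above 0 and the 19S sum below 0 under all 5 scalings, at 0.05 to 0.32 and -0.42 to -0.14. In bone spots under 10% muscle, with scran factors, the 19S difference was 0.05 (-0.13 to 0.23) and the core difference 0.52 (0.28 to 0.76). Per 10000 UMIs, 19S subunits had 21.5 in Control and 19.9 in Loaded in those spots, and core subunits 9.80 and 12.6. The side of 0 on which 19S lay there thus depended on the scaling.

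Activators and chaperones were thinly counted in bone. *Psme1*, the alpha subunit of the interferon-inducible PA28 cap, had 39 UMIs in Control bone and 38 in Loaded bone, a log2 ratio of 0.39 (-0.29 to 1.07). Its partner *Psme2* had 3 and 6 UMIs and *Psme2b*, a near-identical copy of *Psme2* whose reads may not be separable from it, 14 and 9. *Psme4*, the PA200 cap, had 138 and 68 UMIs, a log2 ratio of -0.59 (-1.03 to -0.16) with overlapping blocks. The 7 assembly chaperones together had 85 and 86 UMIs, a difference of 0.44 (-0.01 to 0.89), and none of them reached 50 UMIs.

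**Figure D4:**
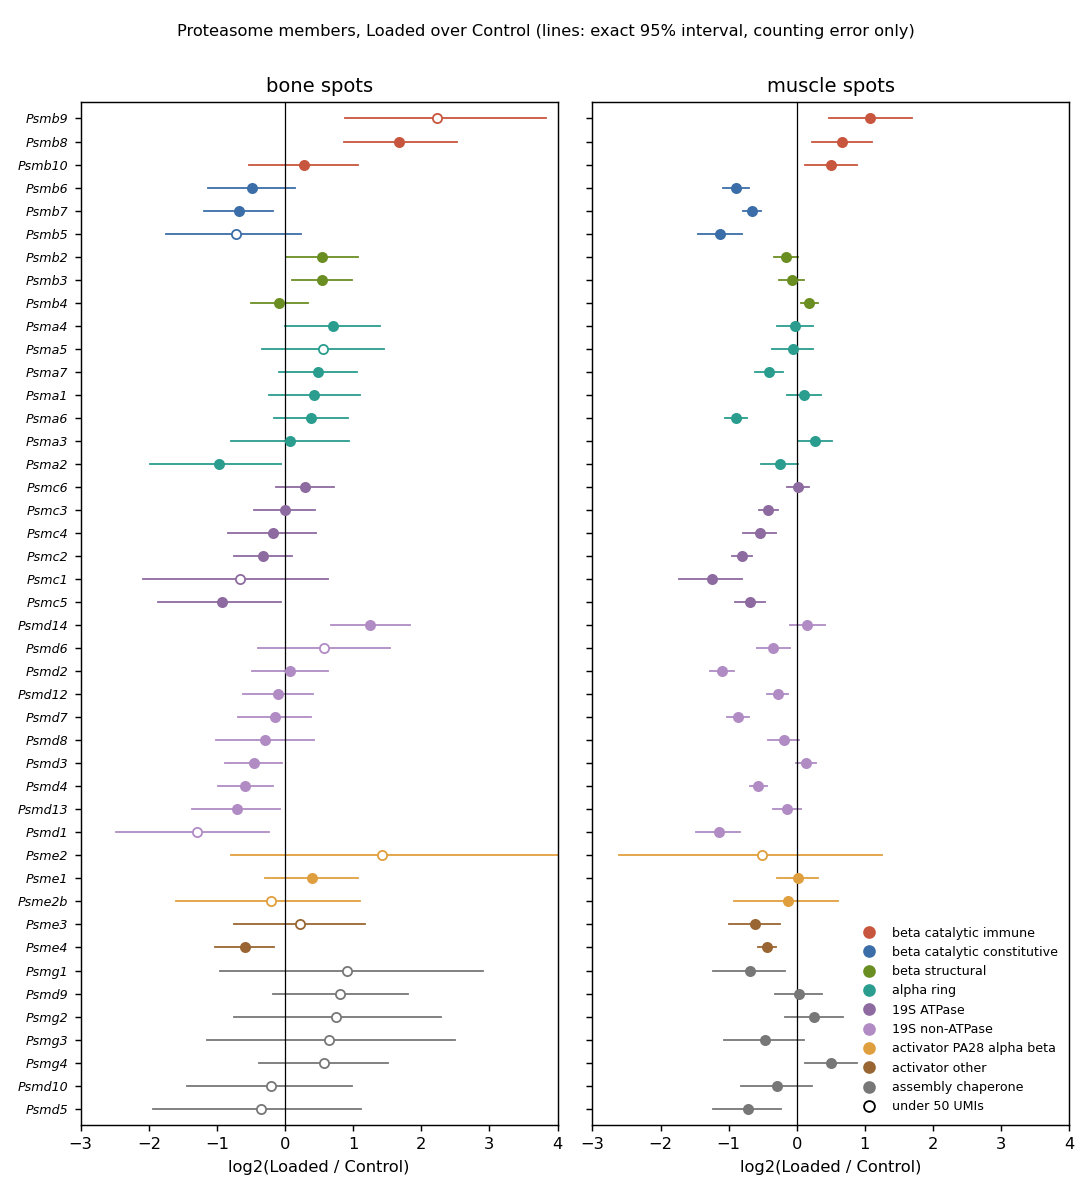
Log2 ratio of normalized counts, Loaded over Control (x axis), for 44 members in bone spots (left) and muscle spots (right), coloured by class and ordered by their value in bone. Lines are exact 95% intervals for counting error, cut at the axis limits, and open circles mark members under 50 UMIs. Immune subunits lie right of 0 in both panels (0.28 to 2.23 in bone, 0.50 to 1.08 in muscle) and constitutive catalytic subunits left of 0 (-0.72 to -0.48 and -1.12 to -0.65).

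In muscle, 43 members reached 50 UMIs. Only *Psmb9* was called higher, against 1.3% of all 9801 genes, and none was called lower, against 2.87%. The *Psmb9* call was lost with library totals, TMM or DESeq2 factors, with no limit on UMIs per spot, with muscle spots of at least 20% muscle and with a minimum of 100 UMIs. The members' median was -0.28 and that of all genes -0.03, and 13 of 43 members had a ratio above 0. After *Psmb9* and *Psmb8* the highest was *Psmg4*, a chaperone of alpha ring assembly (0.51, 0.12 to 0.89). The lowest were the 19S ATPase *Psmc1* (-1.25, -1.73 to -0.80), the 19S scaffold subunit *Psmd1* (-1.15, -1.48 to -0.83) and *Psmb5*. *Psmd2*, the other large scaffold subunit, differed by -1.09 (-1.27 to -0.91) and the alpha subunit *Psma6* by -0.89 (-1.05 to -0.72).

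As classes in muscle, constitutive catalytic UMIs differed by -0.77 (-0.88 to -0.67), 19S UMIs by -0.47 (-0.52 to -0.43), alpha ring UMIs by -0.33 (-0.42 to -0.25) and structural beta UMIs by 0.03 (-0.06 to 0.12). Immune UMIs differed by 0.67 (0.41 to 0.92). Scaling moved the median of all genes in muscle from -0.15 to 0.36, the alpha ring from -0.46 to 0.06 and 19S from -0.60 to -0.08, so the alpha ring has no direction there. Relative to the median of all genes, which scaling does not touch, the members' median was lower by 0.25 in muscle and by 0.12 in bone.

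In marrow, 9 members reached 50 UMIs over both sections, of which 1, *Psmc6*, was called higher in Loaded and 0 lower, against 5.76 and 3.44% of 1337 genes. A lower call needs UMIs in all 4 Control marrow blocks, and the smallest held 3 spots, so few members could be called lower. The highest were *Psmc6*, a 19S ATPase (1.14, 0.17 to 2.31), *Psmb4* (0.53, -0.47 to 1.72) and *Psma4* (0.25, -0.91 to 1.64), and the lowest the 19S ATPases *Psmc2* (-0.85, -1.69 to 0.06) and *Psmc3* (-0.64, -1.64 to 0.47) and the lid subunit *Psmd13* (-0.52, -1.39 to 0.44). With 16 Control and 89 Loaded UMIs, *Psmd14* stood at 0.909 and 0.914.

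The comparison between tissues of 1 section asked which parts of the complex belonged with muscle and which with bone and marrow. In the Control section, 0 of 43 tested members were called higher in bone than in muscle and 3 lower, against 3.08 and 5.33% of 9135 genes. The members' median log2 ratio was -0.69, with -0.13 over all genes. The 3 called lower were *Psmg1*, an assembly chaperone (5 and 128 UMIs, -1.76), the ATPase *Psmc3* (-0.95) and the alpha subunit *Psma7* (-0.82). The lowest ratios were those of *Psmd6*, of the 19S lid (-1.79, -2.53 to -1.13), *Psmg1* and *Psma6* (-1.61, -2.00 to -1.24), and the highest those of *Psme2b* (1.11, 0.14 to 1.99), *Psmb10* (0.73, 0.11 to 1.31) and *Psmb8* (0.54, -0.26 to 1.25).

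In the Loaded section, 3 of 40 tested members were called higher in bone than in muscle and 9 lower, against 12.2 and 12.3% of 7577 genes, with medians of -0.33 and 0.04. The 3 called higher were *Psmb8* (1.54, 0.98 to 2.08), *Psmb9* (1.14, 0.33 to 1.90) and *Psmd14* (0.98, 0.58 to 1.38). The lowest ratios were those of *Psmc5* (-1.44, -2.27 to -0.71), *Psmb7* (-1.27, -1.72 to -0.85) and *Psma2* (-1.20, -2.10 to -0.41), the first 2 of which were called. *Psmb6* was also called lower (-0.80, -1.36 to -0.27).

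Ratios spread more widely in marrow over muscle than in bone over muscle, among members and among all genes alike. In the Loaded section the quartiles in marrow over muscle were -1.36 and 0.61 for members and -1.10 and 0.69 for all genes. In the Loaded section, 7 of 41 tested members were called higher in marrow than in muscle and 16 lower, against 17.1 and 20.1% of 7440 genes. The 7 were *Psmb9* (1.74, 0.97 to 2.47), *Psmb8* (1.70, 1.11 to 2.28), *Psmd14* (1.66, 1.28 to 2.02), *Psmd10*, which chaperones 19S assembly (1.18), *Psmb3* (1.12), *Psma4* (0.79) and *Psmc6* (0.68). The lowest were *Psmc1* with 1 marrow UMI (-2.82, -8.15 to -0.27), *Psmb6* (-1.85, -2.82 to -1.02) and *Psma3* of the alpha ring (-1.77, -2.92 to -0.82). *Psmb7* was called lower (-1.12, -1.60 to -0.67) and *Psmb5* was not (-0.40, -1.45 to 0.50). Members of 1 ring thus ranged widely, with *Psmb3* at 1.12 and *Psmb2* at -1.47, and *Psma4* at 0.79 and *Psma3* at -1.77. In Loaded marrow these 4 genes had 114, 20, 46 and 9 UMIs.

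In the smaller Control marrow, 0 of 42 tested members were called higher than in muscle and 8 lower, against 3.7 and 20.2% of 8768 genes. A higher call needs UMIs in all 4 marrow blocks, and the smallest held 3 spots, so few members could be called higher. Ratios above 0.5 were seen for 11 of 42 members and 2728 of 8768 genes in Control marrow. Its highest members relative to muscle, none of them called, were *Psmb8* (2.76, 1.59 to 3.74), *Psmd14* (1.81, 0.98 to 2.53) and *Psmd10* (1.77, 0.12 to 3.04). There 7 members had 0 UMIs, among them *Psmc5*, *Psmd6*, *Psmg1*, *Psmg3* and *Psmg4*, which were all among those called lower. Against a floor of 3 counts in the Control marrow, *Psmc5* was at least 3.16-fold lower than in muscle and *Psmd6* at least 2.21-fold lower, and for the other 5 the depth set no bound. The lower calls of *Psmg1*, *Psmg3* and *Psmg4* therefore cannot be told apart from low depth. Across the comparisons with muscle, the constitutive sum lay below 0 under all 5 scalings and the immune sum above 0, for example at -1.43 to -0.68 and 0.67 to 1.42 in Loaded bone. The PA28 alpha and beta sum also lay above 0 under all 5 scalings, at 0.09 to 1.07 in Control bone and 0.32 to 1.07 in Loaded bone. With scran factors its intervals held 0 in the Control section, at 0.36 (-0.08 to 0.77) in bone and 1.02 (-0.12 to 1.97, 9 UMIs) in marrow. The structural beta sum turned, from -0.81 to 0.17 in Control bone and from -0.68 to 0.07 in Loaded bone. Other sums turned as well, such as that of the alpha ring, from -0.64 to 0.11 in Loaded bone. Scaling moved the median of all genes in bone over muscle between -0.40 and 0.58 for Control, between -0.36 and 0.38 for Loaded, and relative to that median the members' median was lower by 0.56 and 0.36.

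**Figure D5:**
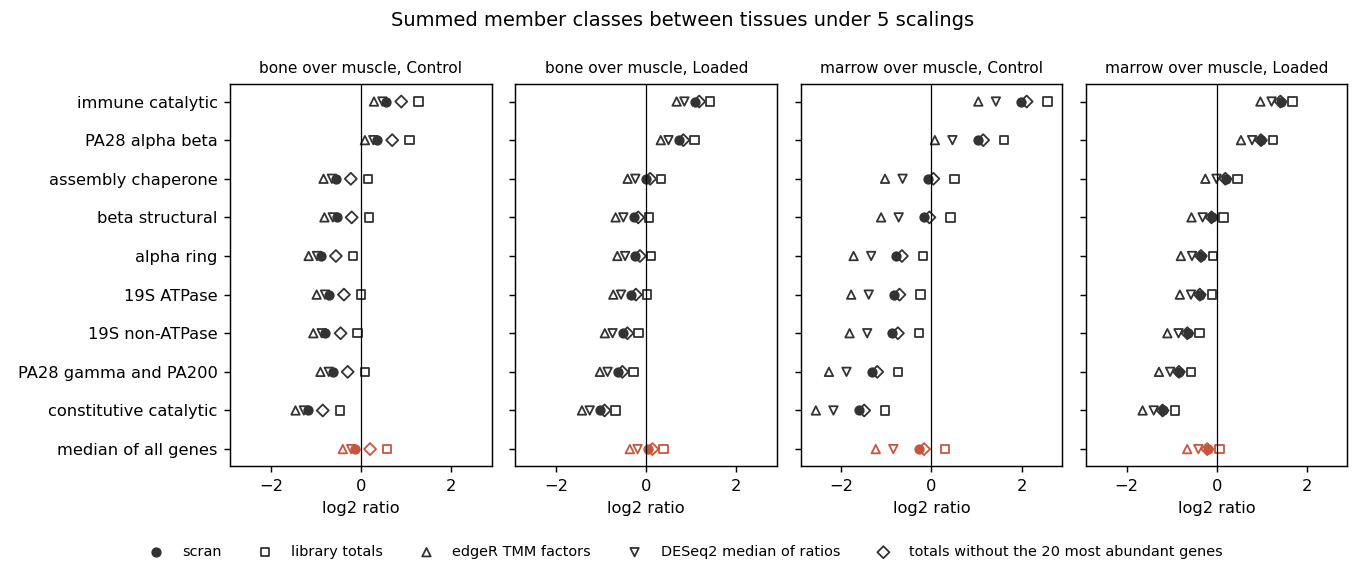
Log2 ratio of summed normalized counts (x axis) for 9 member classes, and the median of all genes (red), in bone over muscle and marrow over muscle of each section. Symbols are 5 ways of scaling, with scran filled. The immune and PA28 alpha and beta classes stay right of 0 and the constitutive catalytic class left of 0 under every scaling. Several other classes turn with the scaling in some panels, among them structural beta subunits, chaperones, alpha ring subunits and ATPases.

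Last, genes that work with the proteasome were set beside it. The list of partners held shuttles, deubiquitinases, the segregase *Vcp* and the regulators *Nfe2l1* and *Nfe2l2*, with 22 genes measured. In Loaded over Control bone, 16 were tested and 1 was called in each direction, against 9.35% of all genes called higher and 3.32% lower, with a median of -0.29. The gene called higher was *Sem1*, a small 19S lid subunit outside the prefix rule, with 720 and 1189 UMIs (1.15, 1.02 to 1.29). In Loaded over Control muscle, *Sem1* differed by 0.14, and none of 20 was called (1.3% of all genes called higher and 2.87% lower). In the Loaded section 2 of 19 tested partners were called higher and 7 lower in bone than in muscle (12.2 and 12.3% of all genes), and 1 higher and 9 lower in marrow than in muscle (17.1 and 20.1%). Against that direction, *Sem1* was called higher in bone (1.07) and marrow (2.19) than in muscle, as *Psmd14*, which sits in the same lid, was. The 19S subunits that are not ATPases, which include more than the lid, did not share this as a class. Of 10 tested 19S subunits that are not ATPases, *Psmd14* included, 1 had a ratio above 0 in bone over muscle and 2 in marrow over muscle. In bone 1 of them was called higher and 3 lower, and in marrow 1 higher and 6 lower. *Nfe2l1*, the transcription factor that restores proteasome genes when activity drops, was called lower in bone (-1.29) and marrow (-2.29) than in muscle.

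Genes of MHC class I peptide loading, the step after the immunoproteasome, had ratios above 0 for 6 of 7 tested members in Loaded over Control bone, against 54.4% of all genes. Of these 7, 2 were called higher (9.35% of all genes) and 0 lower (3.32%), with a median of 0.38: the peptide transporter subunit *Tap2* (116 and 145 UMIs, 0.75, 0.39 to 1.11) and the chaperone *Pdia3* (419 and 721 UMIs, 1.21, 1.03 to 1.39). The paper counts *Pdia3* among genes associated with bone formation. Whether its difference belongs with class I loading or with bone formation was not tested. *Tap1*, which shares the window printed for *Psmb9*, had 6 and 13 UMIs (1.54, 0.05 to 3.22) with blocks apart. *B2m*, the light chain of class I molecules, differed by 0.21 (-0.05 to 0.48). In Loaded over Control muscle, 0 of 10 were called, against 1.3% of all genes called higher and 2.87% lower. In marrow 1 of 6 was called lower (3.44% of all genes) and 0 higher (5.76%), with a median of -0.38. That gene was *H2-D1*, a class I heavy chain (-0.56). In the Loaded section 6 of 9 tested genes were called higher in bone than in muscle (12.2% of all genes), led by *Nlrc5*, the class I transactivator (2.18), and in the Control section 0 of 9 (3.08%). The ratios themselves were alike, with medians of 0.98 in Loaded and 0.76 in Control, where 8 of 9 lay above 0 (43.4% of all genes). A call needs all blocks apart, and the Control muscle block of 32 spots had 48.9 class I UMIs per 10000. Control bone blocks had 19.6 to 36.1.

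Interferon response genes, summed over 9, had 2.12 UMIs per 10000 in Control bone (118 UMIs) and 1.98 in Loaded bone (81 UMIs). *Irf1*, the only one tested there, differed by -0.04 (-0.92 to 0.82), and *Ifit1* had 6 and 0 UMIs. In muscle the same genes had 0.611 and 1.09 per 10000. There 6 were tested, all with a ratio above 0 and none called (1.3% of all genes called higher and 2.87% lower). Their median was 0.43, with *Irf1* at 0.83 (0.38 to 1.27).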

How the data were processed

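The deposited files hold raw UMI counts per gene and spot, which the authors made with Space Ranger 2.0.0 on mm10; nothing was normalized before deposit. Spots with at least 500 UMIs and 250 genes were kept (1898 of 1962 Control and 1431 of 1436 Loaded). Counts were summed over the spots of a region and divided by summed scran 1.30.0 size factors (R 4.3.3) computed over both sections. The spots the study listed as bone were taken over. Marrow was to start at a granulocyte share of 2%, which left 2 Control spots, so a limit of 1% is used throughout. Members and lists were chosen with earlier results of these data known. With 1 section a group no model was fitted, and edgeR 4.0.16 and DESeq2 1.42.0 gave scaling factors only. Intervals are exact (binomial for shares, conditional binomial for ratios, conditional for odds, scipy 1.17.1) and were tested on simulated data. UMIs of 1 spot are not independent of tissue composition, so intervals cover counting error only. Named were the catalytic genes, *Psme1*, *Psme2* and the 3 highest and 3 lowest tested members of each comparison. Others were chosen after their values were seen. Bins of muscle share, the group of other spots and a granulocyte limit of 0.5% were added after seeing the data. Promoter windows are from RefSeq on GRCm38.p6. Some genes of the partner and interferon lists are not reported here.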

Additional observations from a re-analysis of the deposited data

How the results depend on the processing

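Leaving out blocks aside, 174 values under another setting stayed within the spread of the reported value, 63 lay beyond it and 1 reversed. The constitutive ratio of Loaded over Control bone reversed, from -0.62 to 0.70, in bone spots under 5% muscle, where the immune share of Control bone was 41.7%, the log2 odds of Loaded over Control bone 0.38 and those of bone over muscle in Control 3.12. With muscle spots of at least 20% muscle, the immune share was 5.10% in Control and 12.5% in Loaded muscle, the log2 odds over muscle were 2.36 (Control bone), 2.75 (Loaded bone) and 3.26 (Loaded marrow), the constitutive ratio in muscle was -0.63, and called members were 0 higher and 1 lower in muscle 14 lower in Loaded bone over muscle and 5 lower in Control marrow over muscle. Counts of called members depended most on scaling. All such counts in this section stand without the share of all genes called under the same setting. They therefore describe the setting and not the members. TMM factors also moved the median of all genes, to -0.40 (Control) and -0.36 (Loaded) in bone over muscle and to -1.24 in Control marrow over muscle. The higher calls in bone were 2 in place of 3 under each other scaling. Library totals gave 3 lower in bone, 2 higher and 1 lower in muscle, 0 (Control) and 3 (Loaded) lower in bone over muscle and 1 higher in Control marrow over muscle. TMM factors gave 5 lower in bone, 0 higher and 7 lower in muscle, 14 (Control) and 18 (Loaded) lower in bone over muscle 4 higher in Loaded marrow over muscle and 20 lower in Control marrow over muscle. DESeq2 factors gave 4 lower in bone, 0 higher and 5 lower in muscle 11 lower in Control bone over muscle and 14 lower in Control marrow over muscle. Totals without the 20 most abundant genes gave 1 lower in muscle, 1 lower in Control bone over muscle and 1 higher in Control marrow over muscle. No limit on UMIs per spot gave 0 higher in muscle, 0 higher in Loaded over Control marrow and 2 higher in Control marrow over muscle, and a minimum of 100 UMIs, which tests fewer genes, 1 higher in bone and 0 in muscle. In muscle the constitutive ratio was -0.39 with library totals, -0.90 with TMM, -0.61 without the 20 genes and -0.27 with equal spot weights, and the immune ratio 1.06 with library totals and 0.35 with equal spot weights. Minimums of 20 UMIs and 1 UMI gave 2 and 3 higher in Loaded over Control marrow. A granulocyte limit of 2% gave 1 member higher in Loaded marrow over muscle, 0 higher in Loaded over Control marrow and 31 lower in Control marrow (2 spots) over muscle, and a limit of 0.5% gave 4 higher in Control marrow over muscle. A limit of 4% gave a Loaded marrow share of 46.2% and log2 odds over muscle of 1.94, and left no Control spots. Without *Psmb8* and *Psmb5* the immune share was 5.75% in Control muscle, 36.6% in Loaded bone, 13.9% in Loaded muscle and 48.6% in Loaded marrow. Without *Psmb9* and *Psmb6* it was 9.12% in Control muscle. Without *Psmb10* and *Psmb7* it was 8.80% in Control muscle, 58.4% in Loaded bone, 24.6% in Loaded muscle and 72.9% in Loaded marrow, with log2 odds in muscle of 1.76. The cause of these shifts was not tested. Leaving out 1 block at a time, the Control bone share ran from 16.6 to 26%, the Control muscle share from 7.14 to 9.61%, the log2 odds from 1.45 to 2.27 in bone and from 1.07 to 1.58 in muscle, and the constitutive ratio in muscle from -0.91 to -0.42. Blocks are parts of 1 section and not replicates. No paired analysis was possible because each group had 1 section and no test was run. In Control marrow, 30 catalytic UMIs limit what can be seen.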

Other observations

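*Psma8*, an alpha subunit known from the testis, had 47 UMIs in all. Of these, 16 lay in Control spots outside bone, muscle and marrow, 10 in Loaded marrow and 11 in other Loaded spots, while muscle held 6 in Control and 2 in Loaded and each bone region 1. Per 10000 UMIs this was 0.306 in Loaded marrow and 0.00735 in Loaded muscle. Control marrow had 0 *Psma8* UMIs.

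Outside bone and below 10% muscle, in the Control section, the immune share was 40.7% in spots with a granulocyte share under 0.25%, 41.9% from 0.25 to 0.5%, 54.4% from 0.5 to 1% and 50% above. In the Loaded section the same bins held 38.1, 53.7, 54.2 and 57.8%. In the lowest bin, MHC class II genes had 19.6 UMIs per 10000 in Control and 37.1 in Loaded and macrophage genes 12.5 and 16.9, the highest of the 4 bins in each section.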
